A study of Mus musculus with 9 samples.

Results

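Contacts held near cohesin were compared between double-positive thymocytes of NOD and BL6 mice. The members were the 4 libraries made with the Smc1 antibody from these strains, of 9 libraries in all, chosen by the antibody and strain fields of the labels. The groups were 2 libraries of CD4+ CD8+ thymocytes sorted from thymi of NOD/ShiLtJ mice (NOD) and 2 of the same cells from C57BL/6J mice (BL6). Both libraries of a strain are technical replicates of 1 biological replicate, so every p-value below measures spread between libraries that may be technical, and none measures spread between animals. The labels give neither age nor sex, and all cells passed the same sort on CD4 and CD8. A single Smc1 library from (NOD/ShiLtJ X C57BL/6) F1 mice, deposited once as mapped on the NOD genome and once on the BL6 genome, was set beside the loci that differed. The 4 H3K27ac libraries of both strains were used only to describe those loci. NOD tables were mapped on the NOD genome with coordinates shifted to the BL6 reference, and BL6 tables on the BL6 genome, so strain and mapping genome cannot be told apart between the parental groups.

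Cohesin is a ring-shaped protein complex with Smc1 as one of its subunits. It extrudes loops of chromatin until it meets the DNA-binding protein CTCF in a convergent orientation, and it thereby holds enhancers near promoters. HiChIP ligates DNA ends that lie together in the nucleus and then enriches, with an antibody, those bound by a chosen protein, so that each read pair reports a contact between 2 anchors. At the double-positive stage thymocytes carry both CD4 and CD8, rearrange the T cell receptor alpha locus and undergo selection. NOD mice develop autoimmune diabetes spontaneously and BL6 mice do not. A pool of cells cannot tell fewer cells making a contact from a rarer contact in each cell.

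Many of the regions that differed hold families of similar genes, and the promoters show how alike their letters are in the BL6 reference. The letters of the NOD genome, on which NOD reads were mapped, were not looked at. Promoter sequences of 300 bases (250 before to 50 after the start, RefSeq, GRCm38.p6) were available at 20 start sites of 16 protein-coding genes inside the 25 kb bins that were higher in NOD. Reads were 38 bases long on each end. Promoters were not searched on every tested chromosome, so runs shared with genes outside the search were neither counted nor marked. In 10 of these 20 promoters, a share of 50.0%, at least 1 run of 38 bases also stood in the promoter of another gene. Over the tested bins of the searched chromosomes, this held for 687 of 18079 promoters (3.80%). These shares are descriptions, and the part of such repeats in the contact differences was not tested. The 4 promoters below were chosen to show a Ly49 receptor gene with shared runs and one without, a zinc finger gene of the chromosome 4 cluster, and a gene with no shared run. Capitals mark bases that lie in a run of at least 38 letters shared with another gene's promoter, on either strand.
Klra6, chr6:130026905-130027204, minus strand: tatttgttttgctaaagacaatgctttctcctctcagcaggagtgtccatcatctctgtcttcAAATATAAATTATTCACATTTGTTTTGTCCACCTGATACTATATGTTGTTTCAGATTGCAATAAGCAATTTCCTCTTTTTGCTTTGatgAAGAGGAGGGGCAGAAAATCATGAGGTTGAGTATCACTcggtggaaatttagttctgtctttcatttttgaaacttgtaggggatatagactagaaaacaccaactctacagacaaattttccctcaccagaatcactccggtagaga
Klra4, chr6:130067222-130067521, minus strand: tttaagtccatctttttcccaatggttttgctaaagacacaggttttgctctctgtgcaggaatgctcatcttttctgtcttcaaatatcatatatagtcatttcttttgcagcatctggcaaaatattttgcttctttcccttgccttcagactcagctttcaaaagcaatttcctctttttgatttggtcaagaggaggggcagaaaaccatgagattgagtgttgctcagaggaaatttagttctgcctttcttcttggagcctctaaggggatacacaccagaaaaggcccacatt
Zfp985, chr4:147553027-147553326, plus strand: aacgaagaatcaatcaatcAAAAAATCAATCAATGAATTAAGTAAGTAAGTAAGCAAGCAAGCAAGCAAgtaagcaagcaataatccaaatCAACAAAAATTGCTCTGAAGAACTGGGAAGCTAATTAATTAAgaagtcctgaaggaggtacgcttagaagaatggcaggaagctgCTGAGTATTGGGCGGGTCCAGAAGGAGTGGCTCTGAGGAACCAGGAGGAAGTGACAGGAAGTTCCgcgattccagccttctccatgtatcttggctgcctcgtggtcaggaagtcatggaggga
Mroh2a, chr1:88226770-88227069, plus strand: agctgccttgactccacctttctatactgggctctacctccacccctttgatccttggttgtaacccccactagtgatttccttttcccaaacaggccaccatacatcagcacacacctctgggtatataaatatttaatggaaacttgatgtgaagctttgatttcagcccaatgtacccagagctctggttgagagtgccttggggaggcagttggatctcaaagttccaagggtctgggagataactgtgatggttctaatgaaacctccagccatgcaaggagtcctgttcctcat
Klra6 had 124 of its bases in such runs, shared with Klra3, Klra5, Klra9 and Gm52487, and Klra4 had 0. Zfp985 had 157 bases in runs shared with 7 other genes, among them Zfp982, Zfp987 and Zfp988, and Mroh2a had 0. Between Ly49 promoters, identity after alignment was 86.0% for Klra4 and Klra8, 85.0% for Klra3 and Klra9, and 44.7% for Klra1 and Klra4.

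Depth and composition differed between libraries of 1 strain. Used read pairs, those on chromosomes 1 to 19 with anchor midpoints at least 10 kb apart, numbered 1663280 and 1484541 in NOD 1 and NOD 2, and 1899656 and 2620621 in BL6 1 and BL6 2. Between 59.6% and 66.9% of their interactions rested on 2 read pairs, the smallest number a table lists. NOD 2 stood apart from the other 3 libraries, with the lowest share of read pairs on 10 of 19 chromosomes and the highest on 8. Across 80629 bins, the correlation of log2 CPM (read pairs per 1000000 used) was 0.625 between the NOD libraries, 0.764 between the BL6 libraries, 0.755 and 0.752 for NOD 1 with BL6 1 and BL6 2, and 0.586 and 0.648 for NOD 2 with the same 2. These points share libraries, so the values are descriptions. Results that rest on NOD 2 are given with and without it.

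The bins with the most contacts in the 4 libraries together were of 2 kinds. Of the top 12, 5 were loci that differed between strains and are described further on: 3 bins at Sfi1 and 2 on chromosome 4. The other 7 carried contacts in all 4 libraries, did not pass the test between strains (edgeR adjusted p = 1.00 for each), and reached 24 to 70 partner bins per library. A bin on chromosome 12 (107100001 to 107125000, in Gm52008) had 277 and 143 CPM in the NOD libraries and 257 and 232 CPM in the BL6 libraries. Its highest partner was the bin 875 kb away at Bcl11b, which encodes a zinc finger factor required for T cell commitment, with 44 and 11 read pairs in NOD and 48 and 68 in BL6. NOD 2 was the lowest of the 4 at this pair and at the bin.

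The bin in Bcl6 (chromosome 16, 23950001 to 23975000), a gene for a transcriptional repressor, had 186 and 178 CPM in NOD and 205 and 138 CPM in BL6. Its contacts were long, with a mean span between 965 and 1059 kb in the 4 libraries, and the highest partner lay 1300 kb away with 27 and 24 read pairs in NOD and 37 and 46 in BL6. A bin 31.6 kb from Fli1 (chromosome 9, 32575001 to 32600000), which encodes an ETS family factor, had 233 and 187 CPM in NOD and 146 and 125 CPM in BL6. Both NOD libraries were above both BL6 libraries there, and the difference missed the threshold (log2 fold change 0.65, edgeR adjusted p = 1.00). The bin in Sardh (chromosome 2, 27225001 to 27250000), the gene of the mitochondrial enzyme sarcosine dehydrogenase, had 198 and 229 CPM in NOD and 324 and 160 CPM in BL6. Its highest partner, 200 kb away at the glucose transporter gene Slc2a6, had 51 and 75 read pairs in NOD and 135 and 134 in BL6. A bin 8.76 kb from Clic6, a chloride channel gene (chromosome 16, 92550001 to 92575000), had 264 and 179 CPM in NOD and 316 and 247 CPM in BL6, and met a bin 900 kb away with 77 and 50 read pairs in NOD and 103 and 82 in BL6.

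**Figure D1:**
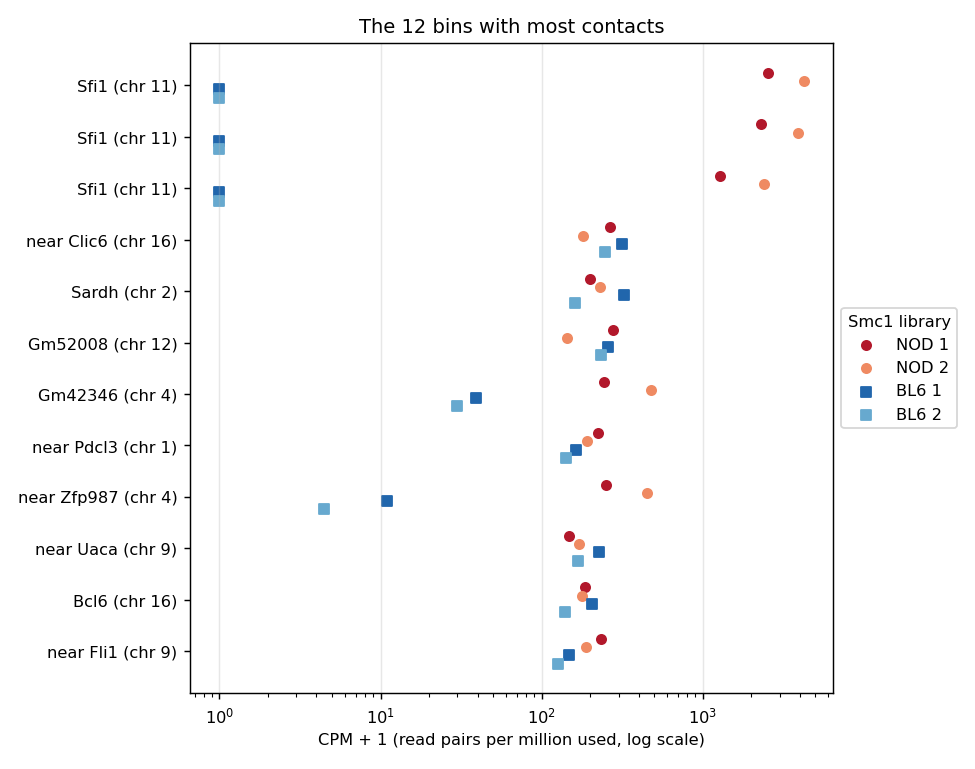
CPM plus 1 on a log axis for the 12 bins of 25 kb with the highest mean CPM over the 4 Smc1 libraries, with 1 point per library (NOD circles, BL6 squares) and no error bars. The 3 Sfi1 bins and the 2 chromosome 4 bins spread widely between strains, and at the other 7 bins the points lie between 124.8 and 324 CPM.

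Membership of the top was only partly shared. Of the 100 bins highest in each library, NOD 1 and NOD 2 had 36 in common, BL6 1 and BL6 2 had 46, and pairs of 1 NOD and 1 BL6 library had 25 to 37. All 4 libraries had 16 bins of their top 100 in common, and 0 of these were among the bins that differed, which were 46 of 80629 tested. Bins that differ are low in 1 strain and can hardly enter a top shared by all 4, so the 0 is a description.

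Reach over all used interactions did not separate the strains. The median span per interaction was 562 and 741 kb in NOD 1 and NOD 2 and 764 and 697 kb in BL6 1 and BL6 2, so that the groups overlapped. Read pairs spanning over 500 kb made up 46.7% and 55.4% in the NOD libraries and 55.0% and 52.6% in the BL6 libraries. NOD averaged 51.1% ± 6.16 and BL6 53.8% ± 1.703 (SD, n = 2 technical libraries each), and the exact permutation test, two-sided, gave p = 1, where 2 against 2 libraries cannot go below 0.3333. NOD 1 had the lowest share over 500 kb on 19 of 19 chromosomes. Without NOD 1 the difference of NOD minus BL6 turned positive, to 1.65 percentage points, and without NOD 2 it was -7.06, against -2.70 with all 4. Both NOD libraries were below both BL6 libraries on 1 chromosome and above them on 0. With interactions of at least 3 read pairs the share over 500 kb was 21.8% and 25.3% in NOD and 27.9% and 28.2% in BL6. Both NOD libraries then lay below both BL6 libraries, and the difference was not tested at that limit.

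**Figure D2:**
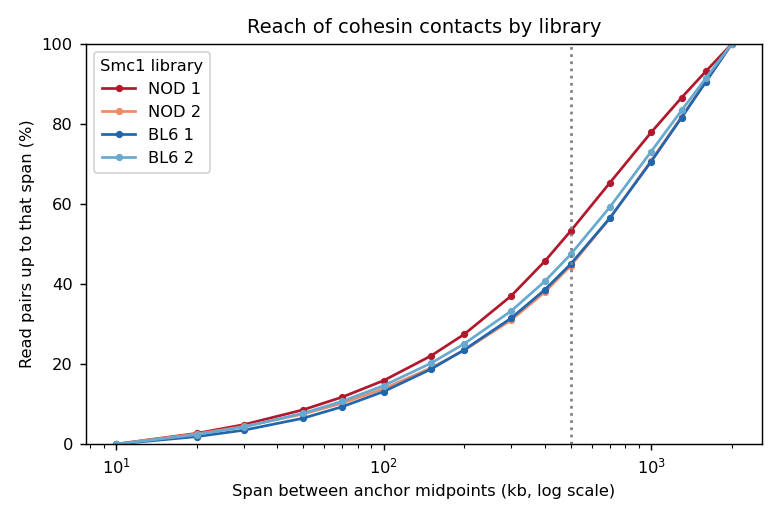
Share of used read pairs (%) up to a given span between anchor midpoints (kb, log axis), with 1 line per Smc1 library and a dotted line at 500 kb. NOD 1 runs above the other 3 libraries over the middle of the range, and NOD 2 follows BL6 1 closely.

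Longer contacts rested on fewer read pairs each. Interactions of 10 to 100 kb averaged 4.39 and 5.30 read pairs in NOD and 5.43 and 5.22 in BL6, while those over 1 Mb averaged 2.15 and 2.14 in NOD and 2.16 and 2.20 in BL6. Tested bin by bin as the mean log2 span of the contacts that touch a bin, reach differed at 0 of 44039 bins (0% called, limma adjusted p under 0.05), with 2131 at an unadjusted p under 0.05 and a smallest limma adjusted p of 0.986. The median difference was -0.10 on the log2 scale, with 26082 bins shorter and 17957 longer in NOD.

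Anchors were shared more often than the contacts between them. NOD 1 and NOD 2 listed 394444 and 402665 anchors with median widths of 1171 and 1173 bases, and BL6 1 and BL6 2 listed 468967 and 418217 anchors with 1255 and 1169 bases. Of the anchors of a NOD library, 73.4% to 80.0% overlapped an anchor of a BL6 library by at least 1 base, and 67.3% and 69.4% overlapped an anchor of the other NOD library. Pairs of 25 kb bins were shared less, with 17.8% to 25.04% of those of a NOD library also listed in a BL6 library and 16.0% and 17.7% in the other NOD library. These measures are unlike, since an anchor needed 1 base of overlap and a contact the same pair of bins. Anchors covered 560 and 590 Mb in the NOD libraries and 734 and 594 Mb in the BL6 libraries. Overlap from coverage alone was not tested. Each NOD library thus shared more of its bin pairs with BL6 2, the deepest library, than with its own replicate (25.04% against 16.0% for NOD 1 and 23.5% against 17.7% for NOD 2). Both NOD libraries listed 90390 bin pairs in common, and 45.3% of these stood in neither BL6 library. Both BL6 libraries had 144544 in common, and 55.9% of these stood in neither NOD library. A pair missing from a table was under the listing limits (2 read pairs and a q-value of 0.05), and the shares move with depth. Where mapping alone changed, in the F1 library, 89.2% of the bin pairs on the NOD genome were also listed on the BL6 genome and 90.5% in the other direction.

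**Figure D3:**
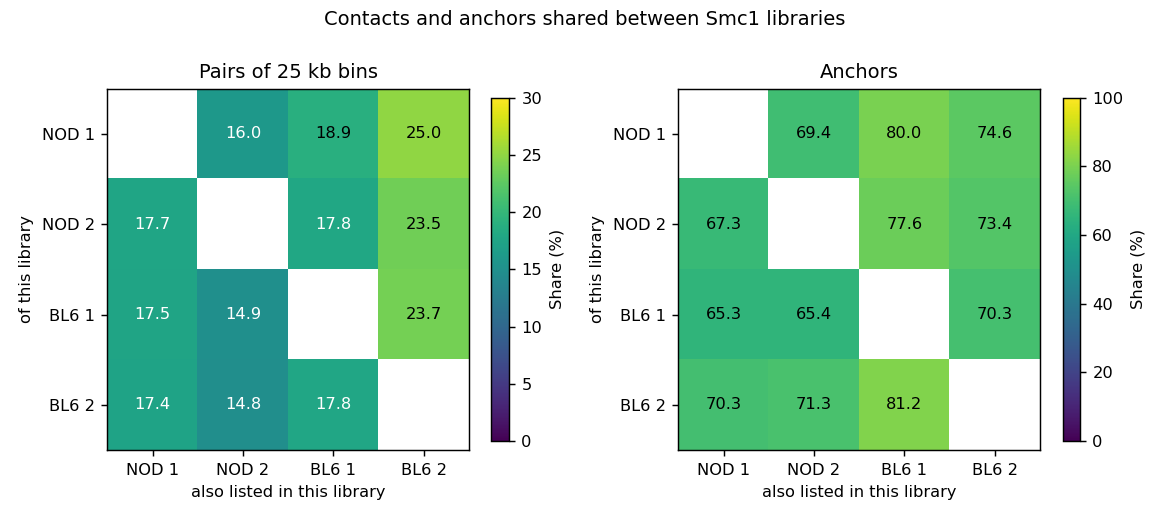
Share (%) of the bin pairs (left) and anchors (right) of the library in each row that the library in each column also lists, over the 4 Smc1 libraries. Bin-pair shares within a strain lie in the range of those between strains, anchor shares within a strain run from 67.3% to 81.2% and between strains from 65.3% to 80.0%, and BL6 2 takes the highest shares of bin pairs.

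Contacts of 44 bins rose in NOD and those of 2 fell, of 80629 bins of 25 kb tested in edgeR by quasi-likelihood, with p-values adjusted by Benjamini-Hochberg and a threshold of 0.05 (0.0546% called higher and 0.00248% lower). The 44 bins lay at 23 loci more than 100 kb apart, 13 bins on chromosome 4, 8 on chromosome 6, 6 on chromosome 1 and 5 on chromosome 7. At an unadjusted p under 0.05, 2997 bins passed. In 18 of the 44 neither BL6 library listed an interaction, so no fold is given for them. NOD 2 had more CPM than NOD 1 in 41 of the 44. With interactions of at least 3 read pairs, 7 bins were called in all. Of the loci named below, those at Sfi1, Klra1, near Zfp987, 1600014C10Rik and Gm1988 were then still called by their highest bin. The other named loci, both of those lower in NOD included, missed the threshold at that setting, and this is not repeated beside them. The number of calls was 12 without BL6 2, 379 without NOD 2 (161 higher, 218 lower) and 1501 without NOD 1 (346 higher, 1155 lower), and all 46 bins kept their direction in each. Of the 46, 46 were still called without NOD 1 or without NOD 2, 42 without BL6 1 and 12 without BL6 2. Of the 14 loci named below by their highest bin, 8 lost their call without BL6 2 and 1 without BL6 1, and this is given beside them.

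The bins with the most read pairs lay on chromosome 11 (3125001 to 3200000) in Sfi1, a gene for a centrin-binding protein of the centrosome. Its highest bin had 4234 and 6302 read pairs in NOD, and neither BL6 library listed an interaction there (edgeR adjusted p = 0.000324). The F1 library had 7268 under NOD mapping and none listed under BL6 mapping. These contacts were short: the 3 Sfi1 bins met 3 to 9 partner bins in a NOD library at mean spans of 22.6 to 41.5 kb, while the highest pair of bins, 25 kb apart, held 2350 and 3461 read pairs in NOD. The number of partners was under the 24 to 70 of the hubs that did not differ.

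The Ly49 cluster on chromosome 6 (130025001 to 130375000) carried 7 of the bins. Ly49 genes (Klra) encode lectin-like receptors by which natural killer cells read MHC class I, and their number varies between mouse strains. The bin of Klra1 had 314 and 676 read pairs in NOD and 5 and 5 in BL6, which gave 7.14 ± 0.60 as log2 fold change (SE; edgeR adjusted p = 0.00132). In the bin of Klra7 the NOD libraries held 176 and 341 read pairs and BL6 listed none (edgeR adjusted p = 0.00189). The remaining 5, at Klra6 and Klra4, Klra4, Klra8, Klra10 and Klra3, had 39 to 105 read pairs in NOD 1, 91 to 220 in NOD 2 and 0 to 20 in the BL6 libraries. Genes of bins other than the highest of a locus are named here after their values were seen. A gene in a bin need not have these contacts at its ends: within 5 kb of the ends of Klra6 no interaction was listed in NOD and 14 and 21 read pairs in BL6, and at Klra3 there were 4 and 0 in NOD and 4 and 4 in BL6.

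Many Ly49 contacts in NOD joined members of the cluster to each other. The highest partner of the Klra1 bin was the Klra7 bin, 150 kb away, with 71 and 202 read pairs in NOD and none listed in BL6. Partners of loci higher in NOD were ranked by the NOD libraries alone, here and below. That choice favours NOD, so strain contrasts at partners are descriptions. Over the whole interval, 348 and 877 read pairs in NOD and 0 and 7 in BL6 had both ends inside it, which was 46.2% and 63.6% of those touching it in NOD and 0% and 7.22% in BL6. Read pairs with 1 end inside numbered 405 and 502 in NOD and 62 and 90 in BL6. The interval was bounded by bins called higher in NOD, so these counts are descriptions too. In F1, both ends fell inside for 453 read pairs with NOD mapping and 444 with BL6 mapping, so its count hardly moved with the mapping. That was 580 CPM under BL6 mapping, and the BL6 libraries had 0 and 2.67 CPM. How well read pairs were placed among Ly49 genes, whose promoters ranged from 42.9% to 86.0% identity, was not tested.

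A zinc finger gene cluster on distal chromosome 4 carried 13 of the bins at 4 loci. Zfp genes of this cluster encode proteins with zinc fingers and many have a KRAB domain, which recruits repressors to DNA. The highest bin (145425001 to 145450000, in Gm42346) had 402 and 711 read pairs in NOD and 72 and 75 in BL6, which gave 3.44 ± 0.44 as log2 fold change (SE; edgeR adjusted p = 0.0168). This call was lost without BL6 2. A bin 22.3 kb from Zfp987 (146050001 to 146075000) had 415 and 666 in NOD and 19 and 9 in BL6 (log2 fold change 5.74 ± 0.57, edgeR adjusted p = 0.00427), and its log2 fold change was 6.65 without BL6 1 and 5.07 without BL6 2. That of Zfp978 and Zfp988 (147325001 to 147350000) had 233 and 378 in NOD and 16 and 30 in BL6 (log2 fold change 4.30 ± 0.45, edgeR adjusted p = 0.00463), a call that was also lost without BL6 2. At the bin of Zfp993 the NOD libraries held 77 and 120 read pairs and BL6 listed none.

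These chromosome 4 loci met each other over long spans. The highest partner of the Gm42346 bin was the bin near Zfp987, 625 kb away, with 108 and 184 read pairs in NOD and 7 and 6 in BL6. The Zfp978 and Zfp988 bin met the Gm42346 bin 1900 kb away with 28 and 69 read pairs in NOD and 0 and 2 in BL6. Its second partner, the Zfp990 bin at 1800 kb, had 35 and 61 in NOD and none listed in BL6. In F1 the Gm42346 and Zfp987 pair held 170 read pairs under NOD mapping and 111 under BL6 mapping. The 300-base promoter of Zfp985 shown above belongs to this cluster and shares runs with Zfp982, Zfp987 and Zfp988. How reads in such runs were placed was not tested.

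A pair of loci on chromosome 13 lay on either side of Tmem267, which encodes a transmembrane protein. The bin of Tmem267 and the chemokine gene Ccl28 (119600001 to 119625000) had 402 and 443 read pairs in NOD and 74 and 86 in BL6, which gave 2.92 ± 0.37 as log2 fold change (SE; edgeR adjusted p = 0.0157). The call was lost without BL6 2 and with interactions counted in place of read pairs. Its highest partner was the bin at 4833420G17Rik and the other end of Tmem267 (119475001 to 119500000), 125 kb away, with 174 and 228 read pairs in NOD and 0 and 7 in BL6. F1 held 152 for this pair under NOD mapping and none was listed under BL6 mapping. The second partner, 25 kb away, was listed in all libraries, with 126 and 101 in NOD and 24 and 52 in BL6. For that partner the F1 library had 166 under NOD mapping and 135 under BL6 mapping. The bin at 4833420G17Rik was itself called, with 204 and 240 read pairs in NOD and 0 and 11 in BL6 (edgeR adjusted p = 0.0157). DESeq2 did not call it (adjusted p = 0.501).

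On chromosome 7 the bin of 1600014C10Rik (38175001 to 38200000) had 262 and 308 read pairs in NOD and 4 and 9 in BL6 (log2 fold change 5.99 ± 0.47, edgeR adjusted p = 7.97e-04). It met the bin of Gm1988, 1000 kb away, with 65 and 86 read pairs in NOD and none listed in BL6, and the Gm1988 bin was itself called, with 130 and 166 in NOD and 0 and 12 in BL6, although not by DESeq2. For this pair F1 held 47 under NOD mapping and 0 under BL6 mapping. Mrgpra3, a gene for a receptor of itch-sensing neurons, lay in 2 called bins further along chromosome 7 (47575001 to 47625000). The first had 197 and 272 read pairs in NOD and 13 and 12 in BL6 (log2 fold change 4.74 ± 0.45, edgeR adjusted p = 0.00382), and its contacts were short in NOD, with mean spans of 285 and 84.9 kb, against 562 and 749 kb in BL6. That call was lost without BL6 2 and with interactions counted.

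On chromosome 2, 3 loci between 177050001 and 177550000 held no protein-coding gene of the table in their called bins. The highest had 99 and 179 read pairs in NOD and 2 and 0 in BL6 (log2 fold change 7.45 ± 0.78, edgeR adjusted p = 0.00527). Its fold rests on 2 read pairs in BL6 1, and without BL6 1 no BL6 listing remained, so no fold is given. The log2 fold change was 6.27 without BL6 2, where the call was lost. The next had 111 and 145 in NOD and 5 and 0 in BL6 (log2 fold change 6.09 ± 0.78, edgeR adjusted p = 0.0178). Without BL6 1 no BL6 listing remained at this bin either. Its log2 fold change was 4.88 without BL6 2, where the call was lost. The call was also lost with DESeq2 (adjusted p = 0.479) and with interactions counted (edgeR adjusted p = 1.00). Both bins had their highest partner in the same bin (177300001 to 177325000).

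**Figure D4:**
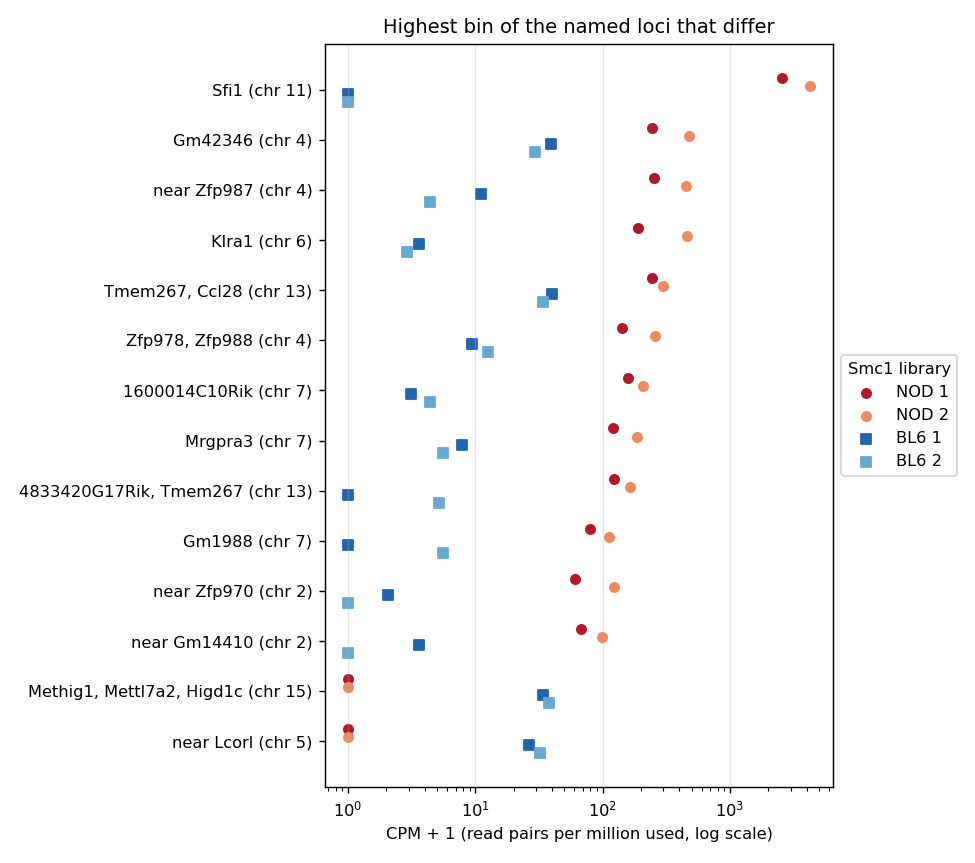
CPM plus 1 on a log axis in the highest bin of the 12 named loci higher in NOD and the 2 lower in NOD, with 1 point per Smc1 library (NOD circles, BL6 squares) and no error bars; a library with no listed interaction lies at 1. The NOD points lie right of the BL6 points in the upper 12 rows and at 1 in the lower 2.

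On chromosome 1, Sp110 and Sp140, which encode nuclear body proteins induced by interferon, lay in 2 bins, the higher with 50 and 92 read pairs in NOD and none listed in BL6 (edgeR adjusted p = 0.0131). Summed by gene, Sp140 missed the threshold (edgeR adjusted p = 0.0752), and Sp100 had 6 and 29 read pairs in NOD and 15 and 27 in BL6. The bin of Ifi202b, an interferon-inducible gene of the family that senses DNA, had 103 and 123 read pairs in NOD and 9 and 12 in BL6 (log2 fold change 3.95 ± 0.46, edgeR adjusted p = 0.0111). Summed by gene, Ifi202b missed the threshold (log2 fold change 3.58 ± 0.74, edgeR adjusted p = 0.395), and its relative Ifi214 had none listed in NOD and 6 and 9 read pairs in BL6. These genes fall outside the 12 named loci and were picked after their values were seen.

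Contacts fell in NOD at 2 bins. One, on chromosome 15 (100350001 to 100375000), holds Methig1, Mettl7a2 and Higd1c. It had no listed interaction in NOD and 63 and 96 read pairs in BL6 (edgeR adjusted p = 0.0177). The other, on chromosome 5 (46325001 to 46350000), has no protein-coding gene, with Lcorl the nearest, and had none listed in NOD and 48 and 81 read pairs in BL6 (edgeR adjusted p = 0.0394). Both calls were lost without BL6 2, and that on chromosome 5 also without BL6 1. Both spread their BL6 contacts over 16 to 33 partner bins, with at most 11 read pairs for their 2 highest partners. The F1 library listed no interaction at either bin on either genome.

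Bins listed in 1 strain alone were about as frequent in each. At least 20 read pairs in both NOD libraries with none listed in BL6 were found in 22 of 47034 bins (0.0468%), of which 18 were called. The converse, at least 20 in both BL6 libraries with none listed in NOD, held for 29 of 59703 bins (0.0486%), of which 2 were called. The F1 library listed all 22 NOD bins on the NOD genome and 12 of them on the BL6 genome too, while 20 of the 29 BL6 bins had no F1 listing on either genome. Among those 20, chosen after their values were seen, were bins at Skint3 and Skint4, genes of an immunoglobulin-like family that shapes gamma delta T cells in the thymus. The Skint4 bin had 30 and 28 read pairs in BL6. Beside Nlrp1b, an inflammasome sensor gene, lay 2 more of them, the higher with 25 and 55 read pairs in BL6. The F1 library held 791845 read pairs under NOD mapping and 765174 under BL6 mapping, fewer than either BL6 library. The part of depth in these missing F1 listings was not tested. On the BL6 genome, 10 of the 22 NOD bins and 21 of the 29 BL6 bins had no F1 listing, against 6.51% of all tested bins. That share covers bins of every depth tested, and none was computed for bins of at least 20 read pairs.

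The F1 library carries both parental genomes in the same nuclei and was read on both, without a replicate and so without a test. Of the 44 bins higher in NOD, 21 had over 1.5 times more under NOD mapping (with 5 CPM added to each value), 23 were within 1.5-fold, and 0 were higher on the BL6 genome. By that rule 3.47% of all tested bins were higher with NOD mapping and 3.76% with BL6 mapping. Sfi1, Mroh2a, Sp110 and Sp140, and 1600014C10Rik were among the 12 bins with reads on the NOD genome and none listed on the BL6 genome. Over all tested bins, 6.51% had none listed on the BL6 genome, whether or not they had F1 reads on the NOD genome. The Ly49 bins of Klra1 (240 with NOD mapping, 222 with BL6 mapping) and Klra7 (213 and 204 in the same order), and that near Zfp987 (518 and 422), had similar counts on both.

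Set against the parental libraries, F1 under BL6 mapping exceeded both BL6 libraries in CPM at 32 of the 44 bins, against 32.8% of all tested bins. The 44 bins were called for low BL6 counts, which favours this order, so the count is a description. F1 exceeded the lower NOD library at 26 of the 44, against 60.3% of all tested bins. In 8 bins with no BL6 listing, the F1 library had interactions on the BL6 genome. Outside Sfi1, the NOD-higher bins held 0.244% and 0.409% of the used read pairs of the NOD libraries and 0.0182% and 0.0165% of those of BL6. In the F1 library they held 0.637% under NOD mapping and 0.358% under BL6 mapping. Of the read pairs at these bins outside Sfi1, 49.7% of 4054 and 43.7% of 6076 spanned over 500 kb in NOD. In BL6 it was 65.2% of 345 and 70.1% of 432. Over all used read pairs the shares were 46.7% and 55.4% in NOD and 55.0% and 52.6% in BL6. The BL6 shares rest on few read pairs at bins called for low BL6 counts, so this contrast is a description.

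**Figure D5:**
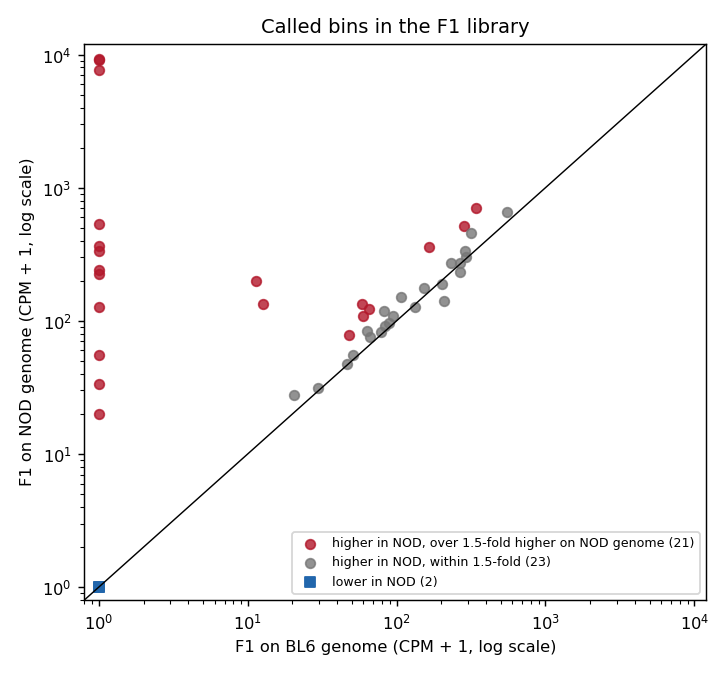
CPM plus 1 of the single F1 library on the NOD genome (vertical, log axis) against the BL6 genome (horizontal, log axis) for the 46 bins that differed between NOD and BL6; the line marks equal values. Red bins (21) lie above the line, several with none listed on the BL6 genome, grey bins (23) lie near it, and the 2 bins lower in NOD lie at 1 on both axes.

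The H3K27ac libraries, labelled as 2 biological replicates per strain, had the NOD libraries higher at most of these loci. Both NOD libraries were above both BL6 libraries in CPM at 42 of the 44 bins, against 6.95% of all tested bins. The Klra1 bin had 186 and 116 H3K27ac read pairs in NOD and none listed in BL6, and the Sfi1 bin had 1792 and 1883 in NOD and none listed in BL6. For this mark, too, NOD tables came from the NOD genome, so strain and mapping genome cannot be told apart here either.

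When read pairs were summed by gene (anchors up to 5 kb from its start or end), contacts of 17 protein-coding genes rose in NOD and 0 fell, of 17797 tested (edgeR, 0.0955% higher and 0% lower). All 17 touched a bin that differed, so they repeat those loci and are no separate evidence. By the rule for names, 9 were named. Levels per gene are not adjusted for gene length, so they compare libraries and not genes. Klra1 averaged 235 ± 173 CPM in NOD and 1.74 ± 0.232 CPM in BL6 (SD, n = 2), from 187 and 530 read pairs in NOD and 3 and 5 in BL6. Tmem267 had the smallest fitted change of the 9, with 279 ± 36.8 CPM in NOD and 35.9 ± 2.14 CPM in BL6 (SD, n = 2; log2 fold change 3.01 ± 0.41, edgeR adjusted p = 0.0312). The log2 fold change was 4.04 ± 0.53 for Zfp988 (edgeR adjusted p = 0.0283), 3.97 ± 0.46 for Mrgpra3 (edgeR adjusted p = 0.0154) and 5.62 ± 0.69 for Klra4 (edgeR adjusted p = 0.0252). Without NOD 2 it was 3.29 for Zfp988 and 4.60 for Klra4.

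Sfi1, Mroh2a, Duxf3 and Ifi203 complete the 9. Sfi1 had 910 and 1606 read pairs in NOD and 16 and 7 in BL6 (edgeR adjusted p = 0.0154). Mroh2a, a gene of the HEAT repeat family, had 78 and 67 read pairs in NOD and none listed in BL6 (edgeR adjusted p = 0.0154). Duxf3, a double homeobox gene of the family that switches on early embryonic genes, had 57 and 69 in NOD and none listed in BL6 (edgeR adjusted p = 0.0221). Ifi203 had 42 and 61 in NOD and none listed in BL6 (edgeR adjusted p = 0.0393). The gene calls depended on the libraries: 0 genes passed without BL6 1 and 0 without BL6 2, while 52 passed without NOD 2 (36 higher, 16 lower) and 595 without NOD 1 (97 higher, 498 lower). All 17 kept a positive fold change in each. With all 4 libraries DESeq2 called 55, and 657 passed an unadjusted p of 0.05 in edgeR. Without BL6 1 and without BL6 2, 336 and 348 had an unadjusted p under 0.05, and DESeq2 was not run on 3 libraries.

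Genes of the double-positive stage did not pass. Of 33 tested, 0 rose and 0 fell, 18 had positive and 15 negative fold changes, and the median was 0.07, against -0.01 over all genes. Bcl11b had 279 and 117 CPM in NOD and 233 and 174 CPM in BL6, and Bcl6 had 274 and 103 CPM in NOD and 247 and 108 CPM in BL6. The coreceptor gene Cd8a had 115 and 22.9 CPM in NOD and 47.4 and 80.5 CPM in BL6, and Tcf7, which encodes a factor of T cell specification, had 87.8 and 9.43 CPM in NOD and 22.6 and 13.7 CPM in BL6. In each of these genes NOD 1 lay above both BL6 libraries and NOD 2 below both. NOD 2 was the lowest of the 4 at 24 of the 33 genes, against 38.0% of all genes tested. Summed over the list, contacts came to 2030 CPM in NOD 1, 692 in NOD 2, 1640 in BL6 1 and 1036 in BL6 2. Without NOD 2, 2 of the 33 rose and the median was 0.45, and without NOD 1, 6 fell and the median was -0.80. Without BL6 1 or BL6 2, 0 passed, with medians of 0.45 and -0.37.

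Genes of the cohesin machinery itself did not pass either. Of 12 tested, 0 rose and 0 fell, 4 had positive and 8 negative fold changes, and the median was -0.19. Without NOD 1 the median was -0.69 with 1 gene called higher, and without NOD 2 it was 0.14 with 0 called. Ctcf had 40.9 and 15.5 CPM in NOD and 50.5 and 21.4 CPM in BL6, and Rad21, the kleisin subunit that closes the ring, had 21.6 and 6.74 CPM in NOD and 16.8 and 20.2 CPM in BL6. Wapl, which encodes the factor that releases cohesin from DNA, had 8.42 and 26.3 CPM in NOD and 1.58 and 4.96 CPM in BL6, and its difference missed the threshold (log2 fold change 2.43 ± 0.98, edgeR adjusted p = 1.00). Smc1a, Stag2 and Hdac8 are X-linked, and chromosome X was not used here.

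No list but one had a called member. Of 26 T cell receptor signalling genes 0 passed (median 0.17), and of 36 type 1 diabetes and Idd candidates 0 passed (median -0.06). The T cell receptor median was -0.16 without NOD 1 and 0.33 without NOD 2, and the type 1 diabetes median was -0.44 without NOD 1, with 1 gene called lower, and 0.16 without NOD 2. Families known to vary between strains, Ly49 and Ifi200 genes among them, chosen with results known, had 4 of 38 tested members called, all higher (Klra1, Klra4, Mrgpra3 and Ifi203), 29 positive and 9 negative fold changes, and a median of 0.58, where 0.0955% of all genes were called higher. The number called was 12 without NOD 1, 8 without NOD 2 and 0 without BL6 1 or without BL6 2. Both NOD libraries were above both BL6 libraries at 18 of the 38, against 15.3% of all genes, and below at 3, against 17.6%. Since this list was chosen with results known, its counts and their contrasts with all genes are descriptions. Of its 60 genes, 52 were in the gene table. Markers of other cells in a thymus had 0 members called in each list. Their medians were 0.02 for 8 B cell genes, -0.07 for 8 myeloid and dendritic genes, 0.10 for 6 natural killer genes, -0.56 for 5 erythroid genes and 0.09 for 6 thymic epithelium genes. With either NOD library left out, 0 of these markers were called, and the median of B cell genes was 0.19 without NOD 1 and -0.13 without NOD 2. That of thymic epithelium genes was -0.18 without NOD 1 and -0.11 without NOD 2. B cell genes summed to 254 and 259 CPM in NOD and 310 and 209 CPM in BL6, so contacts were listed at genes of other lineages too, and the label of the sorted cells cannot be checked from contacts as it could from expression.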

How the data were processed

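HiChIP with an Smc1 antibody was analysed for 2 NOD and 2 BL6 libraries, with 1 F1 library on 2 genomes and 4 H3K27ac libraries for description. Per the file headers, the authors deposited raw counts: the read pairs of each interaction, not normalized. The tables also give read counts per anchor, a distance, and a p-value and q-value per interaction deposited by the authors; they list only interactions of at least 2 read pairs with a q-value up to 0.05 and a distance under 2 Mb, as checked on the values. An interaction not listed was under that limit, and counted as 0 in sums and fits. Tools in the submitters' processing notes are HiC-Pro, Juicer 1.7.6 and MACS, and the build is GRCm38; their roles are not given in the sources used here. Per the names of the deposited tables, NOD tables were shifted from the NOD genome, and the NOD libraries titled 1 and 2 are numbered 2 and 3 there. H3K27ac samples are titled as Smc1, and their antibody field was followed.

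Used interactions lay on chromosomes 1 to 19 and spanned at least 10 kb between anchor midpoints. Their read pairs were added up per 25 kb bin and per gene, each interaction counting once per bin or gene (Python 3.11.15, pandas 2.3.3). The gene table (GRCm38.p6, 20665 protein-coding genes used) has no strand, so windows of 5 kb around both gene ends were used. Counts were tested with edgeR 4.0.16 in R 4.3.3 (quasi-likelihood, default expression filter, TMM, robust), Benjamini-Hochberg threshold 0.05. Reach per bin used limma 3.58.1 on log2 span where each library had at least 20 read pairs. DESeq2 1.42.0 was an alternative. Fits were tested on simulated data. CPM is read pairs per 1000000 used read pairs of the library. Intervals were not computed, since read pairs listed only above a limit are not a random sample.

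Genes were named by a rule: adjusted p under 0.05, separated libraries, 50 or more read pairs on average in the higher strain, up to 15 each way by fold change, clone-type names passed over, and the smallest p among genes within 100 kb. Up to 12 loci each way were named by read pairs of their highest bin, and the 12 highest bins as hubs. Partners were ranked by mean CPM, over the 4 libraries for hubs and over the libraries of the higher strain for loci. The members, lists and rules were chosen with earlier results of these data known. Libraries of equal number were not treated as pairs: the labels do not tie the numbers across strains, and deviations of equal-numbered libraries correlated by 0.103 over bins.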

Additional observations from a re-analysis of the deposited data

Results flagged for a closer look

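Contacts shorter than 10 kb entered no comparison but were also listed at the bins higher in NOD. Outside Sfi1 their read pairs numbered 1050 in NOD 1 and 2131 in NOD 2, against 96 in BL6 1 and 109 in BL6 2, and were looked at because they lie outside the main measurement. F1 had 1398 under NOD mapping and 623 under BL6 mapping, and the H3K27ac libraries had 603 and 484 in NOD and 37 and 32 in BL6. At all the NOD-higher bins together, Sfi1 included, the numbers were 7646 and 11636 in NOD and 96 and 109 in BL6.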

How the results depend on the processing

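The 46 bins (44 higher in NOD, 2 lower) became 72 with DESeq2 (66, 6), 110 with a replicate block (90, 20), 28 with interactions counted in place of read pairs (26, 2), 7 with interactions of at least 3 read pairs (7, 0) and 23 (22, 1) without bins that differ between genomes in F1, which removed 21 of the 44 by construction. Library totals, no low-count filter and 50 kb bins gave 50, 51 and 43. Leaving out 1 library gave 12 to 1501 bins and 0 to 595 genes; an arm then has 1 library, assumed to vary like the other strain's. The 17 genes became 55 with DESeq2, 5 with at least 3 read pairs, 3 without genes that differ in F1, 0 with a 2 kb window, where 466 had an unadjusted p under 0.05, and 3 with start sites only, an alternative chosen after seeing the data. They were 23 with library totals, with no low-count filter and with the replicate block. The block rests on a number shared by libraries that the design does not pair, over 2 pairs with a correlation of 0.103 over bins and 0.185 over genes. All 46 bins kept their direction in every alternative that tested them at 25 kb, and all 17 genes likewise; the cause of the moves in count was not tested. Of 147 refits of the 14 named loci 122 stayed under the threshold and 25 missed it, and of 100 refits of the 9 named genes 57 stayed and 43 missed it. Reach per bin gave 0 calls under every alternative run, the replicate block included. The difference in the share over 500 kb ran from -7.06 to 1.65 percentage points with 1 library left out, the only sign change. It was -4.50 with interactions of at least 3 read pairs, where both NOD libraries lay below both BL6 libraries. Bin pairs shared by a NOD with a BL6 library averaged 21.3%, and 46.5% with 50 kb bins. Anchors averaged 76.4%, with 72.3% where at least 50% of the anchor had to be covered and 62.6% with at least 3 read pairs. Also chosen after seeing the data were 2-fold in place of 1.5-fold, which left 17 of 21 bins differing between genomes in F1, 1 CPM added in place of 5, which left 21, and deposited distances, which gave -2.71 percentage points. Between 59.6% and 66.9% of interactions rest on 2 read pairs, so single contacts are known poorly.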
